A study of Mus musculus with 2 samples.

Results

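The 5 genes of the mouse beta-globin cluster (Hbb-y, Hbb-bh1, Hbb-bh2, Hbb-bs and Hbb-bt, all on the minus strand of chromosome 7, mm10) were examined together with the DNA on their upstream side. Every DNase-seq peak and footprint within 50 kb of a GENCODE vM21 start of these genes was taken, which is chr7:103763996-103903216. The window held 23 of the 76130 peaks and 52 of the 151079 footprints of replicate 1, and 9 of the 73852 peaks and 32 of the 230992 footprints of replicate 2. Peaks that overlapped by at least 1 bp were merged, which gave 25 of the 99252 regions of the genome. The study had measured DNase I accessibility in mouse embryonic liver at 13.5 days. Its 2 libraries form 1 group, each from its own tissue sample with the same donor label, with sex labelled as not collected. The strain of both is given as C57BL/6N,129, wild type with several copies of the A85 YAC, a yeast artificial chromosome. The sources used here do not give the content or copy number of the YAC, and reads from any mouse-like sequence on it would add to the mouse locus. C57BL/6 and 129 mice are known to carry different forms of the adult beta-globin genes, and the sources used here do not say which form each library had.

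Beta-globin is a chain of hemoglobin, the oxygen carrier of red blood cells. The cluster is read in turn during development: Hbb-y and Hbb-bh1 serve the primitive red cells made in the yolk sac, and Hbb-bs and Hbb-bt serve the definitive red cells that are made in the fetal liver. High expression needs the locus control region, a series of DNase I hypersensitive sites upstream of Hbb-y at which GATA1, TAL1, KLF1 and the NF-E2 pair of a large subunit and a small MAF protein bind. The site known as HS2 is known for neighbouring NF-E2 sites, whose core reads TGAGTCA. The deposited files do not name any site, so regions are called here by the distance from their near edge to the start of Hbb-y.

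The sequences below carry the locus, all from assembly GRCm38.p6 (mm10) and read on the minus strand in the direction of transcription. The first set shows where footprints, short stretches protected from DNase I inside an open region, overlapped between the replicates: capitals mark the bases that lay in a footprint of both. It holds the 250 bases before the RefSeq start of each adult gene (chr7:103827929-103828178 for Hbb-bs and chr7:103813924-103814173 for Hbb-bt) and the region 7785 bp upstream of Hbb-y (chr7:103861001-103861200).
Hbb-bs promoter: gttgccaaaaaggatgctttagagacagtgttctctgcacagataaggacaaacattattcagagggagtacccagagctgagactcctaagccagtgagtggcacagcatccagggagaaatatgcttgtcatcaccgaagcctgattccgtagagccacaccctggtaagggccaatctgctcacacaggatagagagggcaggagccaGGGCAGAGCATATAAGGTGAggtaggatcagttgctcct
Hbb-bt promoter: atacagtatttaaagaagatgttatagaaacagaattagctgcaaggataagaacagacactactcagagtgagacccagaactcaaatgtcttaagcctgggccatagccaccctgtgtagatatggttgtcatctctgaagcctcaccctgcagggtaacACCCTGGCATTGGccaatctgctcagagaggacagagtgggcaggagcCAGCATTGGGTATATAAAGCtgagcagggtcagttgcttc
Region at 7785 bp: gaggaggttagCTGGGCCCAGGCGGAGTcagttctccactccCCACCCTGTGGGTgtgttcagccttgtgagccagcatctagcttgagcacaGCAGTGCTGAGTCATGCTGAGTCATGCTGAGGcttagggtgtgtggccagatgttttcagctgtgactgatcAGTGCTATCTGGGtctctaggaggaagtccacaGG

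The second set shows the other upstream regions that are described below: 3 with a peak in both replicates, at 5965 bp (chr7:103859181-103859400), 12565 bp (chr7:103865781-103866020) and 17585 bp (chr7:103870801-103870980), and 1 with a peak in replicate 1 alone, at 23965 bp (chr7:103877181-103877400). Capitals mark matches on either strand to GATAA (GATA factors), TGAGTCA (NF-E2 and other AP-1-like factors) or CACCC (KLF factors).
Region at 5965 bp: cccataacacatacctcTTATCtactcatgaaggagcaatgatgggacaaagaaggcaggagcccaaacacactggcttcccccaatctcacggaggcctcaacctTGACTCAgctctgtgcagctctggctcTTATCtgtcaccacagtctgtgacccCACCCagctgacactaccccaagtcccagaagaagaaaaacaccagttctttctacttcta
Region at 12565 bp: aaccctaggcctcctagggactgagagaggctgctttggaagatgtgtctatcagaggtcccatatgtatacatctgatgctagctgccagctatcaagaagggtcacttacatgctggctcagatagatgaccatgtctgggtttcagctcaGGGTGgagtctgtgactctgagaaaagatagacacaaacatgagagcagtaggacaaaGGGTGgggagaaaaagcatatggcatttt
Region at 17585 bp: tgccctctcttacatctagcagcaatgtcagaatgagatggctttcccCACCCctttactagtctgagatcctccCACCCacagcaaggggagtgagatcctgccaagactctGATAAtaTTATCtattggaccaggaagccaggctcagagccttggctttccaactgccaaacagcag
Region at 23965 bp: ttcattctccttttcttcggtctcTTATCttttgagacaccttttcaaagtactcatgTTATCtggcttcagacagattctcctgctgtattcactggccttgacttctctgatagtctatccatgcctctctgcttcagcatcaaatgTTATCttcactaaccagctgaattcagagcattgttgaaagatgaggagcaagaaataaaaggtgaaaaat

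The last sequence is the promoter of the embryonic gene Hbb-y (chr7:103853208-103853457), shown because it had no peak; its capitals mark matches to CACCC, the box CCAAT or the TATA form ATAAAA. RefSeq promoter sequences were found for 4 of the 5 genes, all but Hbb-bh1.
Hbb-y promoter: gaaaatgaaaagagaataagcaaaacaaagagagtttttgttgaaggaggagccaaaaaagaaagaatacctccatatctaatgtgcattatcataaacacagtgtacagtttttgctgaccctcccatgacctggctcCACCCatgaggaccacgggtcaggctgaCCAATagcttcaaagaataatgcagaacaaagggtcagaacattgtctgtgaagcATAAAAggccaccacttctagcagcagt

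The adult promoters were open in both replicates and the embryonic promoters were not called in either. Peak values are the authors' signal, whose normalization is not stated. They are whole multiples of a step in each library, so each is given with the 95% Poisson interval of its count, which covers counting error only. At the start of Hbb-bs (chr7:103827861-103828100) the value was 6.52 (5.97 to 7.11) in replicate 1 and 3.02 (2.76 to 3.29) in replicate 2. These rest on counts of 515 and 500 and ranked 6320th and 11058th of the peaks of their library. At the start of Hbb-bt (chr7:103813861-103814080) it was 4.54 (4.09 to 5.04) and 2.47 (2.24 to 2.73), from counts of 359 and 410. Hbb-bs was 1.44 times as high as Hbb-bt in replicate 1 and 1.22 times in replicate 2. Hbb-bs and Hbb-bt are near-identical in their coding parts, but every 36-base word of both promoter regions occurs once in the assembly. The liver holds several cell types, and in bulk tissue fewer cells of a type and less accessibility per cell cannot be told apart.

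No peak of either replicate lay within 1 kb of the start of Hbb-y, Hbb-bh1 or Hbb-bh2, and that stretch held 0 bases with a false discovery rate (FDR) under 0.05 and 0 footprints at each of the 3 genes in each replicate. The peak nearest to the start of Hbb-y was 1580 bp away in replicate 1, with a value of 0.785, and 5994 bp away in replicate 2. For Hbb-bh1, the nearest peak of replicate 2 began 1557 bp upstream, with a value of 0.724, and the nearest of replicate 1 was 11632 bp away. For Hbb-bh2, a gene of the same cluster that lies between Hbb-bh1 and the adult genes, the distances were 12420 bp and 4201 bp. Across the genome 58.4% of protein-coding genes had a shared region, one with a peak of both replicates, within 1 kb of a start, against 2 of these 5. The pseudogenes Hbb-bh0 and Hbb-bh3 had no peak either. A gene without a peak here is one that the lists do not name at their threshold, not one shown to be closed.

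**Figure D1:**
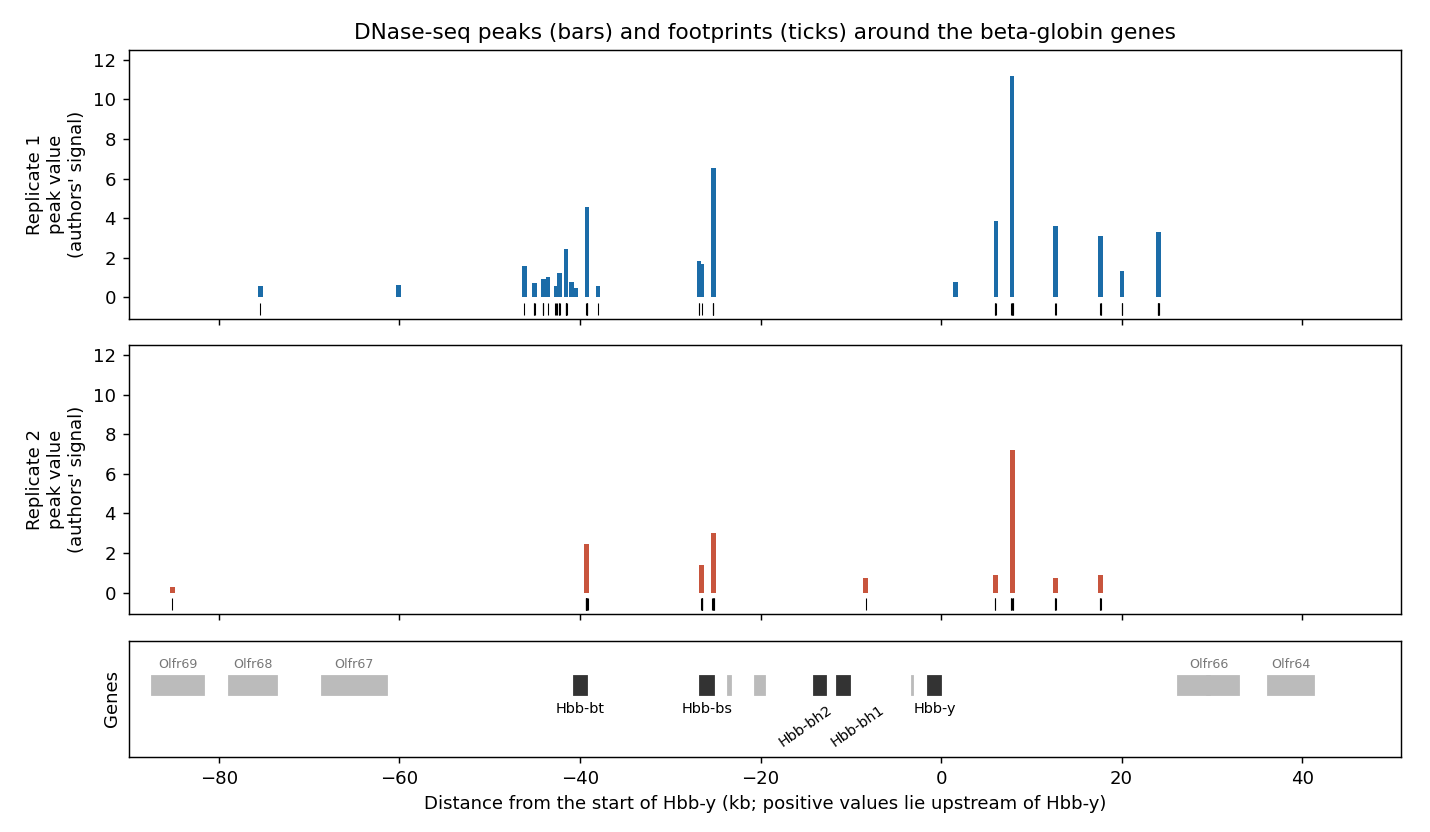
Peaks and footprints of the beta-globin window by replicate. The x axis is the distance from the start of Hbb-y in kb, bars are peak values in the authors' signal, ticks are footprints, and boxes in the lowest panel are genes (dark for the beta-globin genes, grey for olfactory receptor genes and pseudogenes). Both replicates have their highest bar upstream of Hbb-y, at 11.2 and 7.18, and bars at the starts of Hbb-bs and Hbb-bt, whereas the group of bars to the left of Hbb-bt is in replicate 1 alone.

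Upstream of Hbb-y, 4 regions had a peak in both replicates and 3 in replicate 1 alone. The region at 7785 bp, which holds the neighbouring TGAGTCA sites shown above, was the highest of the window in each library, with 11.2 (10.5 to 12.0) in replicate 1 and 7.18 (6.78 to 7.60) in replicate 2. It ranked 2683rd and 4136th of all peaks. It was 1.72 times the Hbb-bs promoter in replicate 1 and 2.38 times in replicate 2, and 2.47 and 2.91 times the Hbb-bt promoter.

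The other 3 shared upstream regions were of like height in replicate 1 and low in replicate 2. The region at 5965 bp had 3.86 (3.44 to 4.32) and 0.869 (0.733 to 1.02). The region at 12565 bp had 3.58 (3.18 to 4.02) and 0.718 (0.595 to 0.860). The region at 17585 bp had 3.11 (2.74 to 3.53) and 0.863 (0.728 to 1.02). In replicate 1 these lay above 83.2% to 86.0% of all peaks of the library, and in replicate 2 above 47.3% to 55.2%. The shorter peak list of replicate 2, whose peaks all hold a base with an FDR under 0.001, has none of the 3. With that list 3 regions of the window remained shared, those at the starts of Hbb-bs and Hbb-bt and at 7785 bp.

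**Figure D2:**
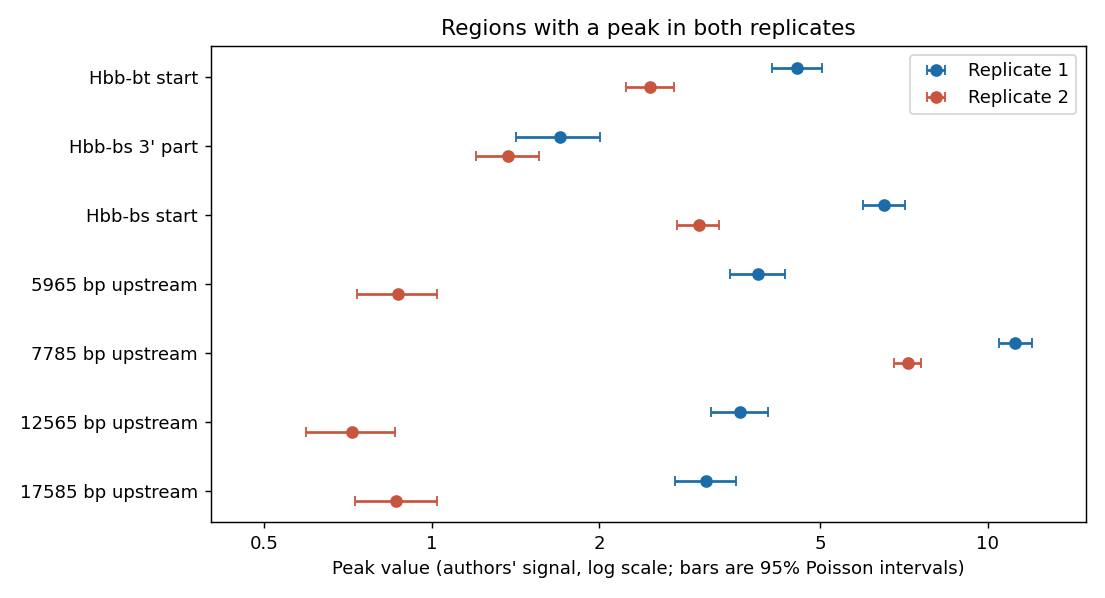
Peak value of each region with a peak in both replicates, on a log axis in the authors' signal, with 95% Poisson intervals as bars. Replicate 2 lies below replicate 1 in all 7, by the most at 5965, 12565 and 17585 bp upstream, and the intervals overlap only in the 3' part of Hbb-bs.

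The ratio of replicate 2 to replicate 1 differed between the regions of the locus. It was 0.642 (0.588 to 0.701) at 7785 bp, but 0.225 (0.183 to 0.275) at 5965 bp, 0.201 (0.160 to 0.249) at 12565 bp and 0.277 (0.224 to 0.342) at 17585 bp, so none of those 3 intervals reached that of the region at 7785 bp. At the adult promoters it was 0.463 (0.409 to 0.525) for Hbb-bs and 0.545 (0.472 to 0.629) for Hbb-bt. These ratio intervals cover counting error only, not other variation between libraries. The median ratio over the 45831 shared regions of the genome was 0.878. With that median set to 0 on the log2 scale, all 7 shared regions of the window were below 0, with a median of -0.92, and the 4 upstream regions had a median of -1.81. The value was -1.96 at 5965 bp, -2.13 at 12565 bp and -1.66 at 17585 bp, and only 0.325%, 0.166% and 0.975% of the 25847 shared distal regions, those over 1 kb from any protein-coding start, had a lower ratio. At 7785 bp it was -0.45, with 27.6% of distal regions lower. For Hbb-bs it was -0.92, with 2.00% of shared promoter regions lower, and for Hbb-bt -0.69, with 4.27% lower. This compares 2 libraries, not 2 conditions.

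Shared promoter regions of other red cell genes were lower in replicate 2 as well. Of 18 listed erythroid genes 17 had a shared promoter region, against 58.4% of all protein-coding genes. All 17 were below 0, with a median of -0.64 and a range of -1.36 to -0.19. The remaining gene, Alas2, had a promoter peak in replicate 2 alone. Over all protein-coding genes with a shared promoter region 6889 of 12795 were below 0, with a median of -0.03. The lists of other liver cells had medians above 0: it was 0.21 for the 5 of 15 hepatoblast genes with a shared promoter region (range -0.41 to 0.32), 0.53 for 5 of 10 stellate and mesenchymal genes, and 0.74 for 2 of 10 endothelial genes, and 1 of 10 macrophage genes, at 1.36, had such a region. Of the other hepatoblast genes, the albumin gene Alb and Foxa2 had a promoter peak in replicate 1 alone. Hnf4a, Ttr, Apoa1 and Onecut1 had one in replicate 2 alone. Shared or not, promoter peaks were at 7 of the 15 hepatoblast genes in replicate 1 and at 9 in replicate 2. The counts were 7 and 8 for stellate and mesenchymal genes, 3 and 5 for endothelial genes, and 3 and 1 for macrophage genes. Over all 21924 protein-coding genes they were 13287 and 14311. The part that the mix of cells plays in the values of the beta-globin regions was not tested. Set to the median of the erythroid promoters instead of all regions, a scale chosen after seeing the data, the median of the 7 beta-globin regions was -0.28, with 5 of the 7 below 0; the regions at 7785 bp and in the 3' part of Hbb-bs were above it. Away from promoters the lists lay closer together. Distal shared regions within 50 kb of the erythroid genes had a median of -0.18, against -0.06 over all distal shared regions, -0.05 around the endothelial genes, 0.01 around the hepatoblast and the macrophage genes and 0.11 around the stellate and mesenchymal genes. Of those around erythroid genes 3 of 119 were below -1.5, and of those around stellate and mesenchymal genes 1 of 19, against 439 of all 25847. Of the 4 upstream of Hbb-y 3 were. The cut of -1.5 lies between the values of these 3 and that at 7785 bp, so this count only restates those values.

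**Figure D3:**
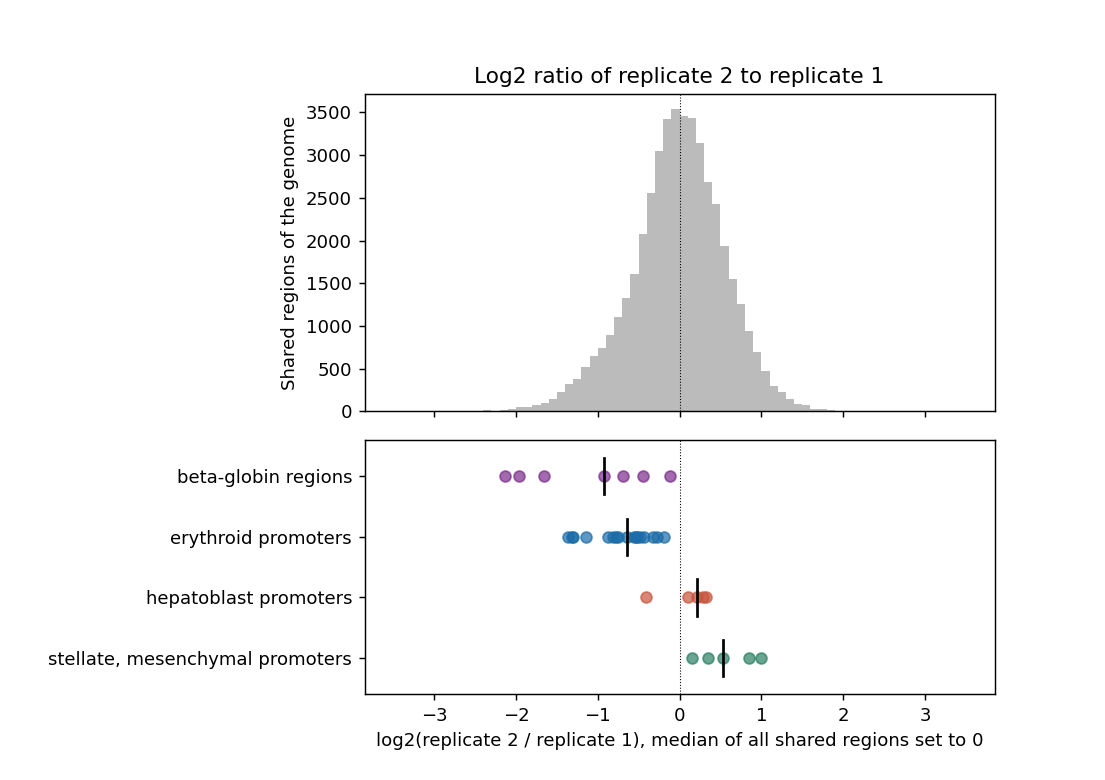
Log2 ratio of replicate 2 to replicate 1, with the median of all shared regions set to 0. The upper panel counts all 45831 shared regions of the genome (values past 3.5 in either direction are drawn at the edge), and the lower panel shows each of the 7 shared beta-globin regions and the shared promoters of 3 gene lists, with a black line at each median (-0.92, -0.64, 0.21 and 0.53).

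Genes for factors known to act on the beta-globin genes had open promoters in both libraries, 24 of the 24 listed, against 58.4% of all protein-coding genes. Their median ratio was -0.13 on the centred log2 scale, with 14 of 24 below 0, against a median of -0.03 and 6889 of 12795 below 0 over all genes. Nfe2, which encodes the large subunit of NF-E2, had 16.7 and 8.53, and Klf1, which encodes the activator of the adult genes, had 5.29 and 2.76. Sox6 and Bcl11a both encode repressors of the embryonic genes and were the lowest and the highest of the list: Sox6 had 3.18 and 1.00 (-1.48) and Bcl11a had 1.48 and 2.41 (0.89). The 3 genes whose highest promoter region was most like that of Hbb-bs, by distance in log2 value over the 2 libraries, were Timm10 (6.46 and 3.18), CT030661.1 (6.29 and 2.84) and Tpp1 (6.33 and 3.26).

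Fewer peaks of replicate 1 than in the genome as a whole had a partner in the other library. Of its 23 peaks in the window 7 had one, which is 30.4% with a 95% Wilson interval of 15.6 to 50.9, against 62.8% over the genome. Of the 9 peaks of replicate 2 in the window 7 had one, which is 77.8% (45.3 to 93.7), against 64.2%. Bases of the window with an FDR under 0.05 numbered 7096 in replicate 1 and 2468 in replicate 2. Such bases were not counted over the genome, so these counts do not show whether the window differs from it.

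Of the 16 regions in replicate 1 alone, 3 lay upstream of Hbb-y, 3 in the stretch from Hbb-bt to Hbb-y, genes included, and 10 beyond the 3' end of Hbb-bt. The highest was the region at 23965 bp, with 3.28 (2.89 to 3.70), 5 footprints and 3 matches to GATAA. Replicate 2 had no peak, no footprint and 0 bases with an FDR under 0.05 there, although 97.8% of the peaks of replicate 1 within 10% of that value overlapped a peak of replicate 2. The others upstream were at 19995 bp, with 1.32, and at 1580 bp, with 0.785. Beyond Hbb-bt, 8 regions lay between positions 103806981 and 103812400, with values from 0.570 to 2.46. The highest of these (chr7:103811581-103811780) held 5 footprints, 2 of them over GATAA, and 95.9% of peaks of its height in replicate 1 had a partner in replicate 2. None of the 8 held a base with an FDR under 0.05 in replicate 2. All 36-base words occur once in the assembly in 7 of the 8, and 39.3% do in the region at 103808081. In the stretch from Hbb-bt to Hbb-y, the region at 103812747 lay in an exon of Hbb-bt, and 12.0% of its words occur once. The region at 103826301 reached into an exon of Hbb-bs. Replicate 2 had 35 and 8 bases with an FDR under 0.05 in these regions, without a peak. Of the 16 regions, 10 held GATAA in their central 200 bases, as did 2 of the 7 shared regions and 28.2% of the peaks of replicate 1 over the genome.

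Replicate 2 had 2 regions of its own. The region at chr7:103844721-103844980, upstream of Hbb-bh1, had 0.724 (0.601 to 0.866); replicate 1 had 40 bases with an FDR under 0.05 there, the lowest 0.0324, and no peak. Only 68.9% of its 36-base words occur once in the assembly, and the most frequent has 257 copies. The other, with 0.272, lay in an exon of Olfr69, an olfactory receptor gene, where 0 of the words are unique. The 5 olfactory receptor genes of the window flank the globin cluster; Olfr68 had a peak of replicate 1 at a start (0.544), and Olfr67, Olfr66 and Olfr64 had none.

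Inside Hbb-bs, a shared region lay in the 3' part of the gene (chr7:103826581-103826800), with 1.70 (1.42 to 2.01) and 1.37 (1.20 to 1.56). Its ratio of 0.808 (0.650 to 1.01) was the nearest to that of the genome. There, 60.5% of the 36-base words occur once, and the rest occur also elsewhere in the window. Next to it replicate 1 alone had a region with 1.82 (1.54 to 2.15).

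Height and FDR did not rank the adult promoters alike. The lowest FDR of a base at the Hbb-bs start was 8.05e-12 in replicate 1 and 1.43e-23 in replicate 2, although the peak was higher in replicate 1. At the Hbb-bt start it was 1.62e-31 and 2.43e-11, and at 7785 bp 3.67e-42 and 8.90e-27. Thus, in replicate 1 Hbb-bs had the higher value of the adult promoters and the weaker FDR. The 3 regions that were low in replicate 2 reached 9.00e-03, 1.15e-02 and 3.19e-03 there, against 1.04e-14, 3.00e-13 and 1.18e-10 in replicate 1.

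**Figure D4:**
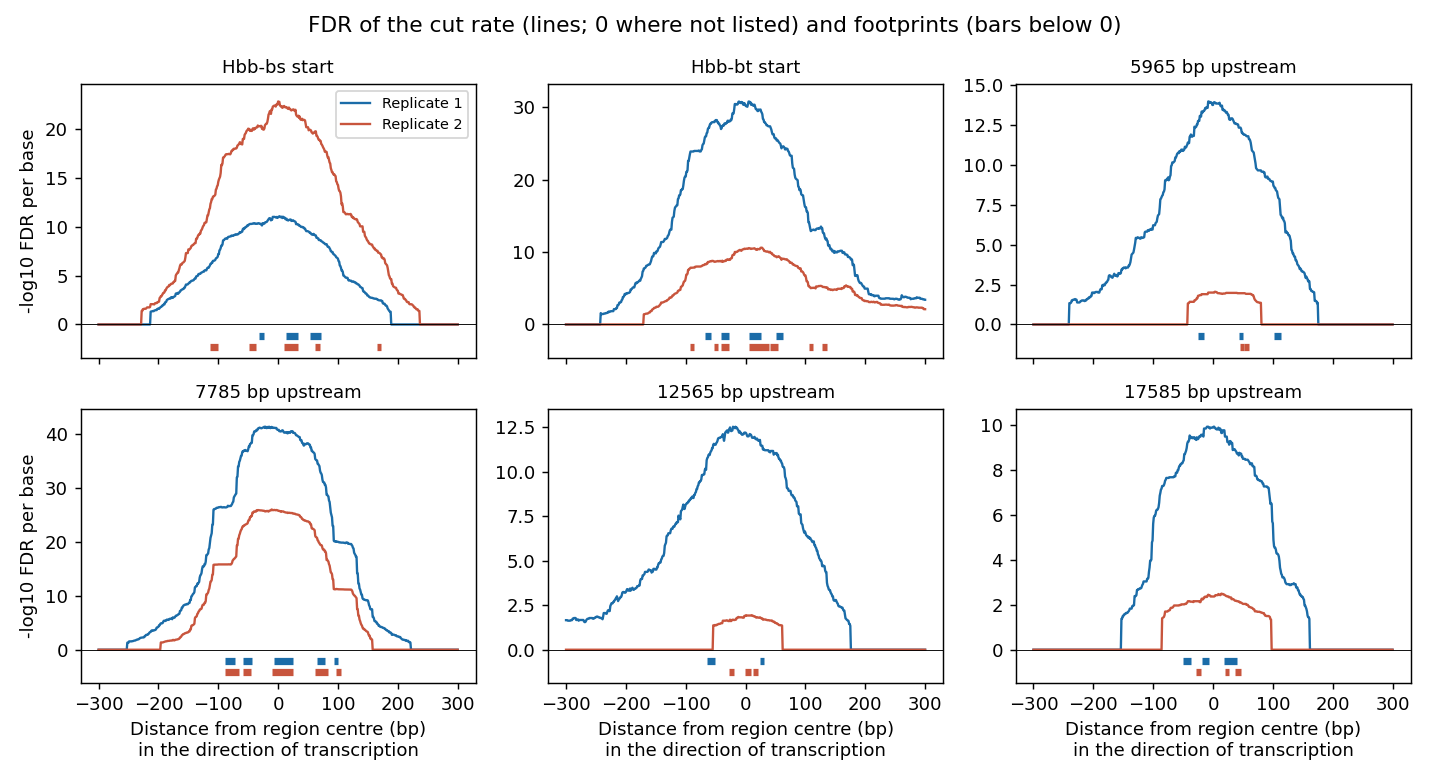
FDR of the cut rate per base as -log10 (lines, drawn at 0 where no value under 0.05 is listed) and footprints (bars below 0) around the centres of 6 shared regions, by distance in bp in the direction of transcription. Replicate 2 is the lower line in 5 of the 6, all but the Hbb-bs start, and its footprints line up with those of replicate 1 best at 7785 bp. The y axes differ between panels.

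Footprints in the shared regions fell on like bases in part. In the 7 shared regions 13 of 21 footprints of replicate 1 (61.9%, 40.9 to 79.2) overlapped one of replicate 2, against 65.4% in the shared regions of the genome. Of replicate 2, 14 of 28 (50%, 32.6 to 67.4) overlapped one of replicate 1, against 46.8%. Over the whole window the counts were 13 of 52 (25%, 15.2 to 38.2, genome 56.8%) and 14 of 32 (43.8%, 28.2 to 60.7, genome 35.6%). Shared regions held 21 of the 52 footprints of replicate 1 and 28 of the 32 of replicate 2. Over the genome they held 121992 of 151079 and 163228 of 230992.

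The 14 overlapping pairs lay in 6 of the 7 regions, and 5 were in the region at 7785 bp, where every footprint of each replicate had a partner. The footprints of replicate 2 that began at 103860996 and 103861017 lay outside its own peak there (103861041 to 103861180). The widest pair shared 32 bases (positions 103861076 to 103861107), the stretch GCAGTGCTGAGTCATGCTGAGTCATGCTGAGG in the sequence above. It covers both TGAGTCA matches of the region, each preceded by GC as in the longer MAF site GCTGAGTCA. TGAGTCA was in the central 200 bases of 5.30% of the peaks of replicate 1, and GCTGAGTCA in 1.37%. A pair of 13 shared bases covered CACCC, the KLF core, which was in the central 200 bases of 47.8% of the peaks of replicate 1. The other pair of 13 shared bases holds GATAG on the opposite strand, a form that was not searched. Footprints of replicate 1 in the regions at 23965 bp and at 103809561 hold that form too. The other pairs of 13 and 17 shared bases, and one of 3 at the edge, matched none of the motifs searched. Those were GATAA for GATA factors, TGAGTCA and the longer GCTGAGTCA for NF-E2, CACCC for KLF factors, the E-box CANNTG for helix-loop-helix factors, the box CCAAT, the TATA forms ATAAAA and also TATAA, and a CTCF core, on both strands; TGAGTCA is part of GCTGAGTCA, and TATAA was added after the sequences had been seen. A match is a description and does not show which protein was bound.

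The other upstream regions had fewer pairs. At 17585 bp, a footprint of replicate 1 covered 2 matches to GATAA and met 2 shorter footprints of replicate 2, with 4 and 7 shared bases. At 5965 bp, 1 pair of 6 shared bases touched CACCC, and neither the TGAGTCA nor the 2 GATAA matches lay in a footprint. At 12565 bp, 2 footprints of replicate 1 and 3 of replicate 2 did not meet. That region held CACCC and no match to GATAA or TGAGTCA. A footprint of replicate 2 there reads TCAGATAGA, which holds GATAG, a form that was not searched.

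The adult promoters shared a footprint over the TATA-like stretch near the start. At Hbb-bs it ran from 20 to 39 bp upstream of the start and at Hbb-bt from 21 to 40 bp, each with 20 shared bases that hold TATAA, which 22.8% of RefSeq promoters of this length hold. At Hbb-bt the start is the RefSeq start, 73 bp from the GENCODE start. Hbb-bt also had a pair from 76 to 88 bp upstream over the end of a CACCC match and a match to CCAAT on the other strand. In Hbb-bs the CACCC match touched a footprint of replicate 2 alone, and the CCAAT match one of replicate 1 alone. Both promoters also had a pair just past the start. The 2 sequences were identical in 182 of 258 aligned columns (70.5%), against 50.2% to 54.2% for the pairs with or between the promoters of Hbb-y and Hbb-bh2. The Hbb-y promoter held 1 match each to CACCC, the box CCAAT and the TATA form ATAAAA, motifs found in 52.0%, 33.8% and 17% of RefSeq promoters, and had no footprint. GATAA had 1 match in each of the promoters of Hbb-y, Hbb-bh2, Hbb-bs and Hbb-bt, and 22.6% of RefSeq promoters hold it.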

How the data were processed

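DNase-seq was examined in 2 libraries of embryonic mouse liver, 1 per biological replicate, with group and replicate number taken from the labels. The authors deposited, for each library, 2 peak lists with a signal value per peak (normalization not stated), a per-base FDR of the cut rate, and footprints, all on mm10, as their deposited notes say. The deposited footprints carry a constant value of 0.01, read as a p-value or FDR threshold. The sources used here do not name the aligner, the callers or their versions, or how multiply matching reads were treated. The longer list was used, whose peaks all reach an FDR under 0.05; this threshold and that of 0.001 for the shorter list were inferred from the deposited FDR values.

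Signal values were whole multiples of 0.0127 in replicate 1 and 0.00604 in replicate 2 for 100% of peaks (tolerance 0.05 of a step); counts are values divided by the step. The median peak of the longer list had a count of 69 in replicate 1 and 126 in replicate 2. The sources used here give no library totals. None of the 630277 lines checked lay off the 21 chromosomes. Regions are peaks merged by at least 1 bp, with the value of the highest peak, and a promoter region lies within 1 kb of a GENCODE vM21 start. All 5 genes, the other genes and all regions of the window, and the footprints of shared regions, were open to naming, and the 3 genes nearest to Hbb-bs in value. The genes and lists were chosen with earlier results of these data known. With 1 group of 2 libraries no test between conditions was possible. Merging, step recovery and motif search were tested on simulated data. Alternatives were the shorter list, stricter overlap, windows of 20 and 100 kb, the upper 50% of peaks, other centring and leaving out a replicate. Python 3.11.15, pandas 2.3.3, numpy 2.4.6, scipy 1.17.1, pysam 0.24.0 and Biopython 1.88 were used.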

Additional observations from a re-analysis of the deposited data

How the results depend on the processing

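The count of shared regions of the window (7) was 3 with the shorter peak list, where those at 5965, 12565 and 17585 bp and the one in the 3' part of Hbb-bs were lost; it stayed between 6 and 10 with stricter overlap, windows of 20 and 100 kb and the upper 50% of peaks. With a replicate left out, the window's regions ranged from 9 to 23 and its footprints from 32 to 52, since nothing is then required to be shared. Overlapping footprints of replicate 1 (13) ranged from 11 to 13. The median log2 ratio (-0.92) ranged from -1.11 without centring to -0.70 with the shorter list, and was -0.28 on the erythroid scale added after seeing the data, where 5 of the 7 regions were below 0. The median kept its sign under each centring. Values at 7785 bp did not change with either alternative. No paired analysis was possible because there is 1 group. Regions with values near the lower end rest on few counts, down to 37 in replicate 1 and 45 in replicate 2.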
